A study of Oryctolagus cuniculus with 134 samples.

Results

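The mitral valve of rabbits on a cholesterol-enriched diet (CHT) was compared with that of rabbits on chow (Ctrl). The comparison holds the libraries labelled as mitral valve with either treatment, 6 of CHT and 6 of Ctrl, or 12 of the 134 libraries of the study. The study sequenced RNA from the proximal aorta and the 4 heart valves of rabbits on chow, cholesterol, lard or cholesterol with cardiac irradiation. Each mitral valve library came from a separate rabbit. All animals were male New Zealand White rabbits, 12 weeks old at the start, and tissue was taken after a protocol of 16 weeks. CHT rabbits ate chow with 0.3% cholesterol and drank water with vitamin D2, 25000 U per day per 2.5 kg, for 15 days at the start of the protocol. Ctrl rabbits ate chow and received no vitamin D2, so that cholesterol and vitamin D2 cannot be told apart in this comparison. Lard rabbits, which ate 5% lard, received vitamin D2 in the same way, and their 7 mitral valve libraries are used below as a second comparison in which both arms had the vitamin. Irradiated rabbits ate 0.3% cholesterol, received the same vitamin D2 and were given 24 Gy to the heart in 3 fractions after 8 weeks. Their mitral valve libraries entered the model fit.

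The mitral valve leaflet is a thin sheet of interstitial cells in a layered matrix of collagen, proteoglycan and elastin, covered by endothelium and attached to heart muscle at its base. Cells sense cholesterol in the endoplasmic reticulum: when it is scarce, the transcription factor SREBP-2 switches on the synthesis enzymes and lipoprotein uptake, and when oxysterols build up, the nuclear receptors LXR switch on cholesterol export. Macrophages that take up more lipoprotein cholesterol than they can export become foam cells, the hallmark cells of atherosclerotic lesions.

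Between 15528347 and 23041138 read pairs per Ctrl library and between 13564979 and 42151854 per CHT library were counted on genes, with medians of 16365046 and 18482426. Levels are given in CPM, read pairs scaled to a common library size, and as the lowest, median and highest library of a group. A gene at 1 CPM carried a counting error (SD) of 27.2% in the smallest CHT library. Of 29587 listed genes, 15322 passed the filter on low counts. A gene was called at an edgeR adjusted p under 0.05 with a fold change over 1.5. CHT called 861 genes against Ctrl (5.62% of the genes tested), 763 of them higher (4.98%) and 98 lower (0.640%). Large changes ran mainly upwards, since 314 of the higher and 5 of the lower genes passed a fold of 4. All CHT libraries lay above all Ctrl libraries in 403 of the genes called higher, and below them in 43 of those called lower. The median log2 fold change over all genes was -0.02. Counts of called genes in the lists below stand beside these shares of all genes.

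The Ctrl libraries fell into 2 sets of 3. In libraries L156, L199 and L262 the summed level of 15 endothelial markers lay between 225 and 340 CPM, and in L183, L241 and L278 between 1663 and 1814 CPM. PECAM1, the endothelial adhesion molecule CD31, was at 18.8 to 27.5 CPM in the first 3 and at 452 to 484 CPM in the others. The 6 CHT libraries lay between these sets, at a summed 748 to 1261 CPM. Each set held libraries of plate 1, and those of plate 2, L241 and L278, were both in the high set. All CHT libraries were on plate 1, so that plate and diet were partly mixed. On plate 1 alone 630 genes were called, and 812 with the plate as a covariate. The first principal component of the mitral valve libraries, with 31.7% of the variance, ran from -52.8 to -22.9 in Ctrl and from -16.2 to 67.9 in CHT, and the second, with 18.9%, followed this split. Without the 3 endothelial-low libraries 354 genes were called, 323 higher and 31 lower. Without the 3 endothelial-high ones 912 were called, 778 higher and 134 lower.

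Among the CHT libraries 2 stood apart. L157 and L266 were at 67.9 and 61.1 on the first principal component and the other 4 at -16.2 to 11.8. L157 and L266 also had the lowest summed endothelial markers of CHT, 838 and 748 CPM against 976 to 1261 CPM, and they were the libraries with the fewest and the most read pairs of the 12. The part of these measures in the results was not tested. Without these 2 libraries, which leaves 4 of CHT, 404 genes were called, 375 higher and 29 lower. All Ctrl rabbits have numbers beginning with L08 and all CHT and Lard rabbits numbers beginning with L09, so that whatever the number series stands for cannot be told apart from the diet against Ctrl.

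The labelled tissue was checked on its markers. The interstitial and fibroblast markers, among them COL3A1, VIM and POSTN, summed to 23014 to 33330.5 CPM in Ctrl and 26968 to 32682 CPM in CHT. Heart muscle markers summed to 332 to 3527 CPM in Ctrl and 336 to 6010.3 CPM in CHT, and none of the 21 tested was called by edgeR or DESeq2, with 1 at an unadjusted p under 0.05. Of the 15 endothelial markers 0 were called by edgeR or DESeq2, with 0 at an unadjusted p under 0.05. Without the endothelial-high Ctrl libraries 11 of them were called higher.

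**Figure D1:**
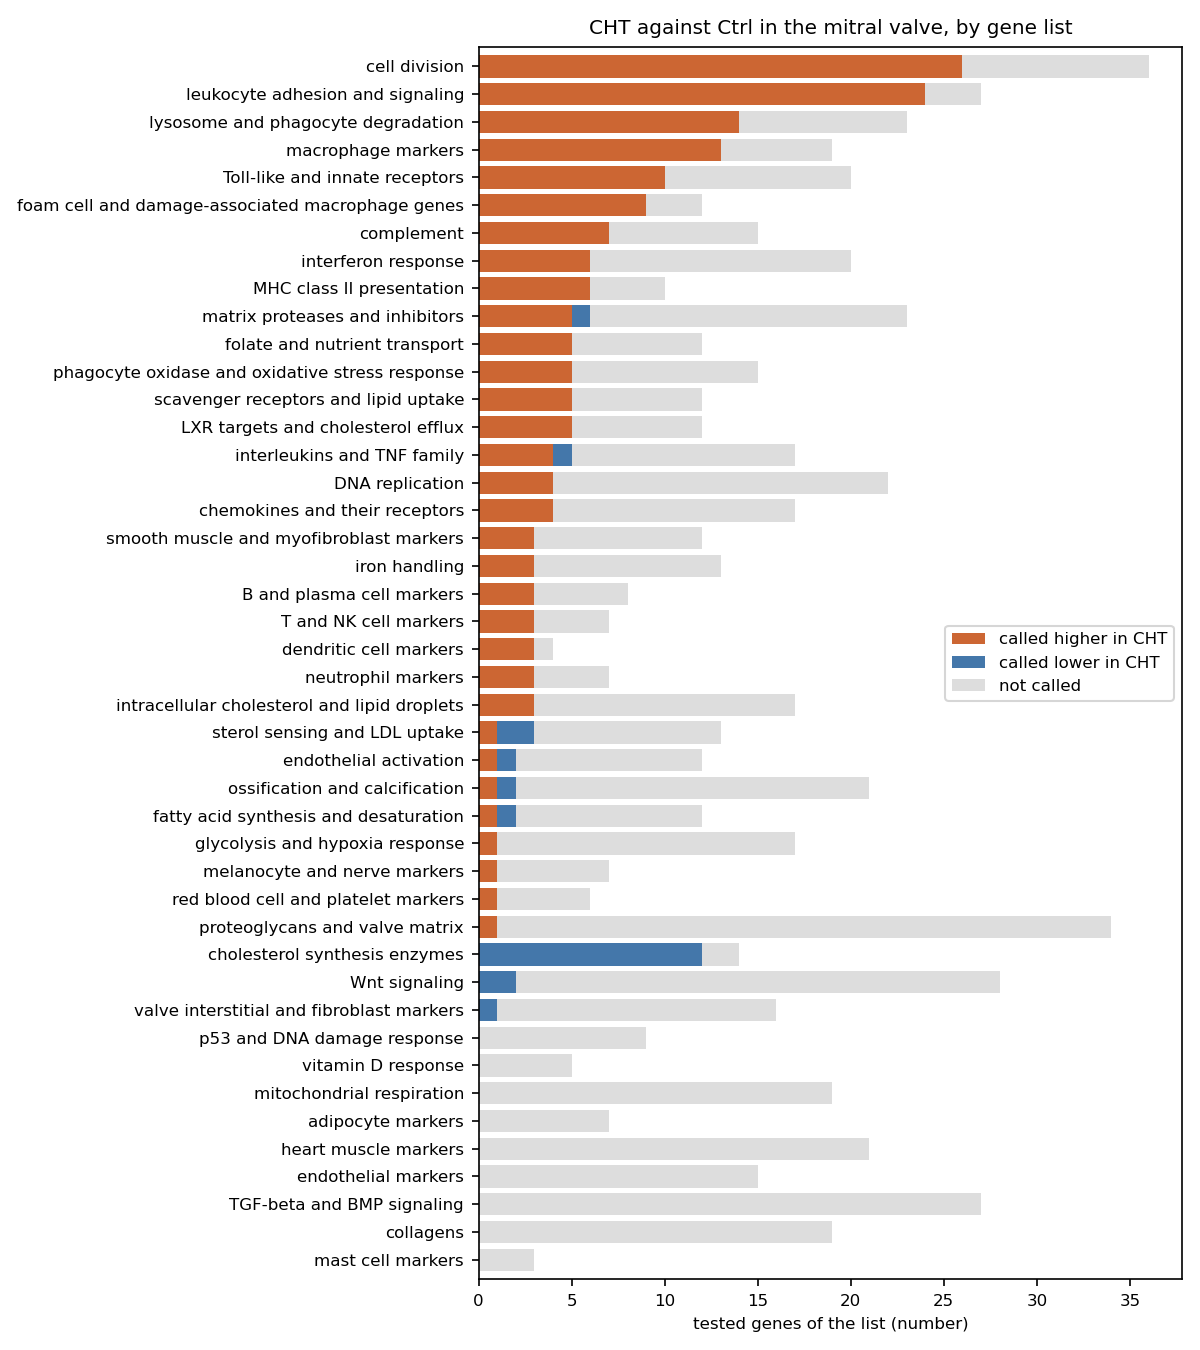
Number of tested genes of each gene list that were called higher in CHT (orange), called lower (blue) or not called (grey) against Ctrl in the mitral valve. Cell division had the most genes called higher, 26 of 36, and the cholesterol synthesis enzymes the most called lower, 12 of 14, while no collagen was called.

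Cholesterol-synthesis enzymes fell together. Of the 14 tested, 12 were called lower and none higher, and the median log2 fold change of the list was -1.15. In 10 of the 14, all CHT libraries lay below all Ctrl libraries (1.02% of all genes did so). The summed level of the enzymes ran from 497 to 698 CPM in Ctrl and from 188.5 to 220.2 CPM in CHT, without overlap. The called enzymes included SQLE, CYP51A1, MSMO1, HMGCS1, FDFT1, ACAT2, NSDHL, FDPS, SC5D and LSS, which act from the condensation of acetyl-CoA units to the trimming of the sterol ring. The mevalonate kinases PMVK and MVK were not called. The count was 11 without the endothelial-low Ctrl libraries, 12 without the endothelial-high ones and 12 without L157 and L266.

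SQLE (ENSOCUG00000015771), which makes the first oxygenated sterol precursor, was at 32.5, 39.7 and 51.5 CPM in Ctrl and 4.72, 7.21 and 10.1 CPM in CHT, a log2 fold change of -2.44 ± 0.18 (SE, adjusted p = 7.65e-10). HMGCS1, an early enzyme of the mevalonate pathway, was at 40.1, 55.5 and 63.8 CPM in Ctrl and 9.72, 16.4 and 18.6 CPM in CHT (-1.84 ± 0.19, adjusted p = 4.24e-07). In both genes the highest CHT library lay below the lowest Ctrl library. Among the later enzymes, MSMO1 fell by 2.11 ± 0.21 (adjusted p = 2.38e-07) and CYP51A1 by 1.89 ± 0.15 (adjusted p = 2.45e-09) on the log2 scale. Neither overlapped between diets.

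The genes that sense sterols or take up LDL did not move as a block. Of 13 tested, 2 were called lower and 1 higher, with a median log2 fold change of -0.06. INSIG1, which holds SREBP-2 in the endoplasmic reticulum and is itself an SREBP target, fell from 22.1, 28.6 and 41.9 to 5.89, 8.45 and 14.3 CPM (-1.71 ± 0.23, adjusted p = 1.57e-05). It was low in every CHT library. VLDLR, a receptor for triglyceride-rich lipoproteins, went the other way, from 16.2, 22.1 and 42.8 CPM to 48.9, 68.0 and 155.4 CPM (1.58 ± 0.34, adjusted p = 0.00308), and it was not called without the endothelial-low Ctrl libraries or without CHT libraries L157 and L266.

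SREBF2, the gene of SREBP-2, was not called. It ran from 30.3 through 76.6 to 153.7 CPM in Ctrl and from 21.5 through 24.7 to 76.0 CPM in CHT, with overlap (-0.997 ± 0.46, adjusted p = 0.252). STARD4, a cytosolic sterol carrier (0.33 ± 0.27, adjusted p = 0.618), and MYLIP, a ligase that degrades lipoprotein receptors (0.42 ± 0.18, adjusted p = 0.191), were not called either.

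**Figure D2:**
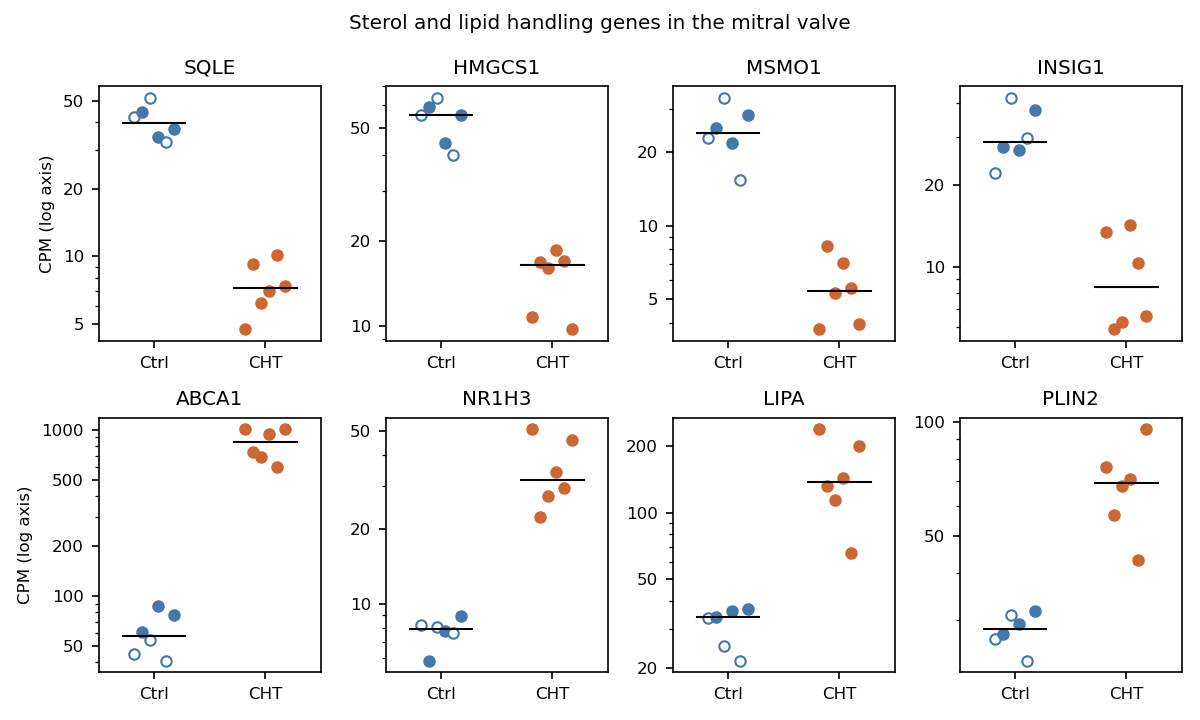
CPM on log axes of 8 sterol and lipid handling genes in the 6 Ctrl (blue) and 6 CHT (orange) mitral valve libraries, with a line at each group's median. Open circles are the 3 endothelial-low Ctrl libraries. SQLE, HMGCS1, MSMO1 and INSIG1 were lower in every CHT library than in any Ctrl library, and ABCA1, NR1H3, LIPA and PLIN2 higher.

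Genes of cholesterol export rose in part. Of 12 tested LXR targets and efflux genes, 5 were called higher and none lower, all 12 had positive log2 fold changes, and the median was 0.71. ABCA1 (ENSOCUG00000009279), the transporter that loads cholesterol onto apolipoprotein A-I, had the smallest p of all genes. It ran from 40.8 through 57.4 to 87.6 CPM in Ctrl and from 595 through 841 to 1011 CPM in CHT (3.77 ± 0.25, adjusted p = 5.78e-10). The lowest CHT library was thus above the highest Ctrl library. NR1H3, the gene of LXR-alpha, was at 5.87, 7.87 and 8.91 CPM in Ctrl and 22.4, 31.8 and 51.0 CPM in CHT (2.18 ± 0.22, adjusted p = 2.1e-07). PLTP, the phospholipid transfer protein, rose by 1.91 ± 0.32 (adjusted p = 0.000239), and LPCAT3, which adds polyunsaturated chains to phospholipids, by 1.14 ± 0.23 (adjusted p = 0.00157). LPCAT3 was not called without the endothelial-low Ctrl libraries. The fifth gene, APOC1, was near the counting floor, with at most 4 read pairs in a Ctrl library and at most 61 in a CHT library, and its call was lost in 9 of 24 alternatives.

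Uptake, hydrolysis and storage of lipid were each represented by a few called genes. Of 12 scavenger receptors and lipid uptake genes 5 were called higher (median log2 fold change 0.76), and of 17 genes of intracellular cholesterol and lipid droplets 3 were (median -0.02). MSR1, the class A scavenger receptor of macrophages, rose from 4.15, 9.19 and 18.5 to 22.4, 48.7 and 65.7 CPM (2.21 ± 0.35, adjusted p = 0.000105). OLR1, the receptor for oxidized LDL, was at 0.704, 1.001 and 1.60 CPM in Ctrl and 1.56, 3.68 and 4.74 CPM in CHT (1.70 ± 0.30, adjusted p = 0.000469), and its groups overlapped. CD36, another scavenger receptor, was not called (0.98 ± 0.47, adjusted p = 0.268). MARCO had at most 3 read pairs in a Ctrl library and 38 in a CHT library, so no fold is given, and its call was lost in 10 of 24 alternatives.

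LIPA, the lysosomal acid lipase that frees cholesterol from its esters, ran from 21.5 through 33.7 to 36.8 CPM in Ctrl and from 65.7 through 138 to 237.9 CPM in CHT (2.26 ± 0.28, adjusted p = 4.62e-06). NPC2, which hands that cholesterol on within the lysosome, rose by 0.99 ± 0.18 (adjusted p = 0.000642). PLIN2, the coat protein of lipid droplets, was at 23.4, 28.5 and 31.6 CPM in Ctrl and 43.1, 69.2 and 95.8 CPM in CHT (1.27 ± 0.17, adjusted p = 2.02e-05). Every CHT library was above every Ctrl library in these 3 genes. SOAT1, the enzyme that esterifies cholesterol for storage, missed the threshold (0.62 ± 0.19, adjusted p = 0.0543). Of 12 genes of fatty acid synthesis and desaturation, MID1IP1, an activator of acetyl-CoA carboxylase, rose (0.84 ± 0.18, adjusted p = 0.00319) and ACSS2, which makes acetyl-CoA from acetate, fell (-0.83 ± 0.23, adjusted p = 0.0244), with the calls lost in 2 and in 10 of 24 alternatives. Neither was called without the endothelial-high Ctrl libraries or without CHT libraries L157 and L266.

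The same genes were set beside the Lard libraries, where vitamin D2 was common to both arms; the CHT libraries are shared by both comparisons. CHT against Lard called 927 genes (6.05% of the genes tested), 811 higher (5.29%) and 116 lower (0.757%), and 500 without CHT libraries L157 and L266. Lard libraries lay on both plates, and 786 genes were called with the plate as a covariate. Of the 14 cholesterol synthesis enzymes 12 were called lower against Lard, and of the 12 LXR and efflux genes 5 were called higher. SQLE in Lard was at 24.8, 31.1 and 41.3 CPM, above every CHT library (CHT minus Lard, -2.10 ± 0.17, adjusted p = 5.94e-09). ABCA1 in Lard was at 32.0, 82.8 and 92.8 CPM (3.61 ± 0.24, adjusted p = 2.26e-10). INSIG1 in Lard was at 21.6, 26.0 and 32.0 CPM (-1.44 ± 0.22, adjusted p = 7.19e-05). In these 3 genes the Lard values lay in or near the range of Ctrl and apart from that of CHT. Of the vitamin D genes 5 were tested against Ctrl, and 0 were called by edgeR or DESeq2, with 0 at an unadjusted p under 0.05. VDR, the vitamin D receptor, was at 0.573, 1.47 and 3.06 CPM in Ctrl and 0.240, 1.94 and 4.54 CPM in CHT (0.33 ± 0.55, adjusted p = 0.854), and CYP24A1, its classical target, had at most 1 read pair in any CHT library. The vitamin was given for 15 days at the start of the 16-week protocol, so levels at its end cannot show an earlier effect.

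Macrophage markers were higher in CHT. Of 19 tested, 13 were called higher and none lower, with a median log2 fold change of 1.18. In bulk tissue, more cells of a type and more RNA per cell cannot be told apart. The markers summed to 367, 597 and 929 CPM in Ctrl and to 956, 1399 and 1755 CPM in CHT, without overlap. Within Ctrl the 3 endothelial-low libraries had sums of 367 to 384 CPM and the 3 high ones 810 to 929 CPM, so that the macrophage level moved with the endothelial level there, and its part in the result was not tested. The count of called markers was 7 without the endothelial-low libraries, 14 without the high ones and 13 with the endothelial level as a covariate. It was 7 without L157 and L266, whose sums of 1638 and 1755 CPM were the highest of CHT.

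ITGAM, the integrin subunit CD11b of myeloid cells, ran from 4.43 through 6.67 to 11.1 CPM in Ctrl and from 43.2 through 105 to 182.99 CPM in CHT (4.01 ± 0.39, adjusted p = 1.83e-07). CD68, a lysosomal glycoprotein of macrophages, went from 14.7, 22.1 and 30.5 to 55.1, 118 and 235.4 CPM (2.65 ± 0.34, adjusted p = 7.59e-06). TYROBP, the signaling adaptor of activating myeloid receptors, rose by 2.70 ± 0.39 (adjusted p = 4.18e-05), and AIF1, the macrophage protein IBA1, by 2.203 ± 0.35 (adjusted p = 0.000107). None of these 4 overlapped between groups. MERTK, C1QA, C1QC, MARCO and VSIG4 were among the other markers called. CD163, the hemoglobin scavenger receptor, was at 13.4, 33.8 and 58.9 CPM in Ctrl and 18.0, 36.3 and 64.2 CPM in CHT (0.15 ± 0.44, adjusted p = 0.928). MRC1, the mannose receptor, was at 60.5, 201.4 and 374 CPM in Ctrl and 77.0, 219 and 329.8 CPM in CHT (0.09 ± 0.45, adjusted p = 0.96). Both spanned nearly the same range on either diet. LYVE1, SIGLEC1, LYZ and C1QB were not called either.

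Most genes known from foam cells and lipid-laden macrophages rose. Of 12 tested 9 were called higher, with a median log2 fold change of 1.83. GPNMB (ENSOCUG00000026334), a transmembrane glycoprotein of lipid-laden macrophages, was at 10.5, 12.0 and 17.2 CPM in Ctrl and 192.1, 626 and 1560.4 CPM in CHT (5.91 ± 0.44, adjusted p = 1.14e-09). MMP12 (ENSOCUG00000008303), macrophage elastase, had no read pair in the median Ctrl library and 0.509 CPM in the highest, against 60.7, 168.8 and 294 CPM in CHT. Its fitted log2 fold change of 10.71 ± 0.77 (adjusted p = 7.65e-10) therefore rests on a handful of Ctrl read pairs. SPP1, osteopontin, was at 86.9, 117 and 144 CPM in Ctrl and 183.9, 624 and 841 CPM in CHT (2.34 ± 0.32, adjusted p = 1.88e-05). FABP5, a fatty acid carrier, rose by 1.82 ± 0.29 (adjusted p = 0.000123). ITGAX, the integrin subunit CD11c, named after its values were seen, rose by 2.96 ± 0.41 (adjusted p = 2.02e-05). The CHT library L245 was the lowest of its group in GPNMB, at 192.1 CPM, and in SPP1, at 183.9 CPM, and still above all Ctrl libraries. The list summed to 5882 and 6073 CPM in L157 and L266 and to 1770 to 3871 CPM in the other 4 CHT libraries. Of the 12 genes 8 were called without the endothelial-low libraries, 8 without the high ones and 8 without L157 and L266.

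Lysosomal genes moved the same way. Of 23 tested 14 were called higher and none lower, all 23 log2 fold changes were positive, and the median was 0.96. In 15 all CHT libraries were above all Ctrl libraries (3.00% of all genes). Their summed level was 2185 to 2559.8 CPM in Ctrl and 3495 to 9620.5 CPM in CHT, where L157 and L266 were at 9404.6 and 9620.5 CPM and the other 4 at no more than 5761 CPM. CTSB, an abundant cathepsin, was at 369.9, 456 and 548.3 CPM in Ctrl and 763, 1405 and 2570.5 CPM in CHT (1.83 ± 0.25, adjusted p = 1.57e-05). CTSS, the cathepsin that trims the MHC class II invariant chain, was at 5.02, 13.7 and 24.3 CPM in Ctrl and 59.8, 161.4 and 240.3 CPM in CHT (3.41 ± 0.45, adjusted p = 1.18e-05). CTSK, a collagen-cleaving cathepsin also known from osteoclasts, rose by 1.65 ± 0.21 (adjusted p = 7.07e-06). ATP6V0D2, a proton pump subunit of osteoclasts and macrophages, was at 0, 0.0590 and 0.320 CPM in Ctrl and 2.94, 13.0 and 54.5 CPM in CHT (7.35 ± 0.82, adjusted p = 1.23e-06). The 3 cathepsins and the pump subunit were high in every CHT library. Of the lysosomal genes 9 were called without the endothelial-low Ctrl libraries, 14 without the high ones and 10 without L157 and L266.

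Genes of leukocyte adhesion and signaling gave the highest share of calls among lists of more than 20 genes. Of 27 tested, 24 were called higher, with a median log2 fold change of 2.29. In 21 all CHT libraries lay above all Ctrl libraries, beside 3.00% of all genes. ITGAL, the integrin subunit of LFA-1, was at 1.47, 2.04 and 4.65 CPM in Ctrl and 24.6, 58.7 and 164 CPM in CHT (5.06 ± 0.46, adjusted p = 5.18e-08). The other called genes included the shared integrin subunit ITGB2, the phosphatase PTPRC (CD45), the kinases LYN, FGR and BTK and the actin regulators CORO1A, LCP1 and WAS. The count was 19 without the endothelial-low libraries, 25 without the high ones and 19 without L157 and L266.

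Toll-like and other innate receptors numbered 10 called higher of 20 tested, with a median log2 fold change of 1.24. CLEC7A, the beta-glucan receptor dectin-1, was at 0.374, 1.04 and 1.96 CPM in Ctrl and 5.77, 12.5 and 23.2 CPM in CHT (3.53 ± 0.49, adjusted p = 2.23e-05). SYK, the kinase that signals for it, rose by 2.27 ± 0.32 (adjusted p = 3.19e-05), and TLR8, a receptor for single-stranded RNA, by 2.90 ± 0.42 (adjusted p = 3.96e-05). The groups did not overlap in these 3 genes. For complement, 7 of 15 genes were called higher (median 1.07), among them the anaphylatoxin receptors C5AR1 (2.32 ± 0.36, adjusted p = 8.59e-05) and C3AR1 (2.41 ± 0.43, adjusted p = 0.000535). The innate receptors counted 5 and complement 1 without the endothelial-low libraries, 11 and 7 without the high ones, and 9 and 2 without L157 and L266.

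Chemokines and cytokines recruit and activate leukocytes. Of 17 chemokines and chemokine receptors 4 were called higher (median 0.997), and of 17 interleukins and TNF family genes 4 higher and 1 lower (median 0.60), beside 4.98% of all genes called higher and 0.640% lower. Without the endothelial-low Ctrl libraries 1 of each list was called higher and 0 lower, and likewise without CHT libraries L157 and L266. CCR1, a chemokine receptor of monocytes, was at 0.0636, 0.104 and 0.481 CPM in Ctrl and 0.156, 2.13 and 4.06 CPM in CHT (3.51 ± 0.65, adjusted p = 0.000707). With at most 9 read pairs in a Ctrl library and the median Ctrl library under the floor of 3 read pairs, this fitted fold depends on few counts. CX3CR1, the fractalkine receptor, rose by 1.47 ± 0.34 (adjusted p = 0.00586), a call lost under both of these settings. Both overlapped between groups in at least 1 library. IL1RN, the secreted antagonist of interleukin-1, was at 0.547, 1.34 and 1.96 CPM in Ctrl and 3.06, 8.66 and 9.74 CPM in CHT (2.58 ± 0.36, adjusted p = 2.23e-05). Its agonist IL1B was under the filter, with at most 20 read pairs in a Ctrl and 12 in a CHT library. CCL2, the monocyte attractant MCP-1 (0.997 ± 0.46, adjusted p = 0.245), and TNF (1.58 ± 0.83, adjusted p = 0.336) were not called. CXCL10, an interferon-induced chemokine, was called (3.34 ± 0.97, adjusted p = 0.0338), but its call was lost in 14 of 24 alternatives, and that of CCL19 in 5, among them those without CHT library L229 and without either endothelial set of Ctrl libraries.

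Interferon-response genes counted 6 called higher of 20, and all 20 log2 fold changes were positive, with a median of 0.97. OASL, an antiviral effector, was at 0, 0.283 and 0.764 CPM in Ctrl and 1.19, 5.78 and 19.3 CPM in CHT (4.72 ± 0.74, adjusted p = 0.000102). IFIT3 was at 5.88, 9.09 and 15.4 CPM in Ctrl and 9.82, 25.2 and 92.0 CPM in CHT (1.81 ± 0.41, adjusted p = 0.00554), with overlap. A single CHT library, L229, held the top value of IFIT3 and of CXCL10. The count was 1 without the endothelial-low Ctrl libraries, 5 without the high ones and 3 without L157 and L266.

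Antigen presentation and lymphocyte markers were also called. Of 10 MHC class II genes 6 were higher (median 1.60), of 4 dendritic cell markers 3, of 7 tested T and NK cell markers 3, and of 8 B and plasma cell markers 3. Without the endothelial-low Ctrl libraries the dendritic, T and NK, and B and plasma cell counts were 2, 1 and 1, without the endothelial-high Ctrl libraries each was 2, and without CHT libraries L157 and L266 they were 1, 2 and 1. HLA-DRA, a class II chain, was at 19.2, 49.8 and 88.5 CPM in Ctrl and 90.1, 189.5 and 233.8 CPM in CHT (1.87 ± 0.38, adjusted p = 0.00202). CD74, the invariant chain, named after its values were seen, rose by 1.49 ± 0.34 (adjusted p = 0.00512). Neither was called without the endothelial-low Ctrl libraries, where 2 of the 10 class II genes were, nor CD74 without L157 and L266. CD83, a marker of mature dendritic cells that macrophages can share, rose by 3.11 ± 0.37 (adjusted p = 4.19e-06), while IRF8 (2.23 ± 0.46, adjusted p = 0.00218) and FLT3 (1.33 ± 0.37, adjusted p = 0.0282) overlapped between groups, and lost their calls in 3 and 8 of 24 alternatives. IRF8 was not called on plate 1 alone, without the endothelial-high Ctrl libraries or without L157 and L266.

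CD28, the T cell costimulatory receptor, was at 0, 0.0887 and 0.255 CPM in Ctrl and 2.13, 4.52 and 7.33 CPM in CHT (5.41 ± 0.66, adjusted p = 4.62e-06). IL7R, the interleukin-7 receptor of naive and memory T cells, rose by 2.29 ± 0.47 (adjusted p = 0.00218) and was not called without the endothelial-low libraries. The T and NK markers summed to 1.85, 3.24 and 5.79 CPM in Ctrl and 8.73, 17.4 and 26.0 CPM in CHT. These are low levels, and 9 T and NK markers, among them CD2, PRF1, NKG7 and CTLA4, stayed under the filter. CD22, an inhibitory receptor of B cells, was at 0.509, 1.17 and 1.60 CPM in Ctrl and 5.92, 15.0 and 46.0 CPM in CHT (4.35 ± 0.45, adjusted p = 3.91e-07). The B cell markers MS4A1, CD79B and CR2 were under the filter, with at most 7 read pairs in any Ctrl or CHT library.

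Neutrophil markers were counted in the same way. Of 17 found in the table, 7 passed the filter, all 7 with a positive log2 fold change. A gene that is scarce in Ctrl can pass the filter through the other treatments. Of the 7, 3 were called higher. They included NCF4, a cytosolic subunit of the phagocyte oxidase that macrophages share, and MMP9, gelatinase B. NCF4 rose by 2.51 ± 0.42 (adjusted p = 0.000234), and MMP9 was at 0, 0.169 and 0.352 CPM in Ctrl and 0.779, 1.80 and 3.16 CPM in CHT (3.34 ± 0.60, adjusted p = 0.000497). LTF, the granule protein lactoferrin, had up to 74 read pairs in a CHT library and was not called (0.84 ± 0.43, adjusted p = 0.315). The other 10 did not pass the filter. Among them S100A8, S100A9 and S100A12 had at most 4, 12 and 13 read pairs in a CHT library, MPO at most 9, and MMP8 0 in every library. The list summed to 6.46 to 10.8 CPM in Ctrl and 24.1 to 119.8 CPM in CHT, without overlap. In CHT, L157 and L266 were at 119.8 and 118.2 CPM and the other 4 at 24.1 to 37.3 CPM, and the count of 3 was the same without L157 and L266. Of 3 mast cell markers tested 0 were called by edgeR or DESeq2, with 0 at an unadjusted p under 0.05.

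**Figure D3:**
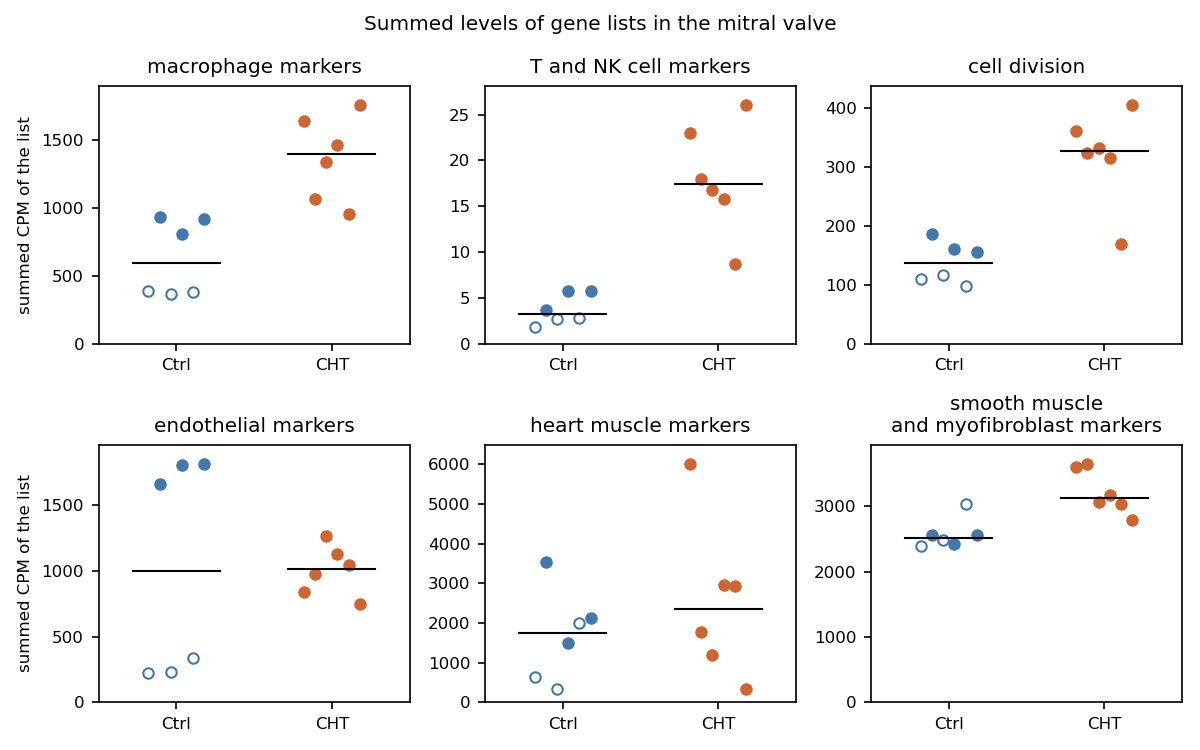
Summed CPM of 6 gene lists in the 6 Ctrl (blue) and 6 CHT (orange) mitral valve libraries, with a line at each group's median and open circles for the 3 endothelial-low Ctrl libraries. Macrophage markers ran from 367 to 929 CPM in Ctrl and from 956 to 1755 CPM in CHT, while the endothelial markers split the Ctrl libraries and heart muscle markers overlapped.

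Genes of cell division were called in greater number than any other list. Of 36 tested, 26 were higher, all 36 log2 fold changes were positive, and the median was 1.55. In 4 of the 36 all CHT libraries lay above all Ctrl libraries, beside 3.00% of all genes. NCAPH, a condensin subunit, was at 10.3, 13.9 and 21.6 CPM in Ctrl and 23.7, 39.4 and 62.8 CPM in CHT (1.56 ± 0.24, adjusted p = 8.82e-05). KIF23, KIF15 and KIF11, kinesins of the mitotic spindle, rose by 1.51 ± 0.29 (adjusted p = 0.00111), 1.07 ± 0.21 (adjusted p = 0.00114) and 1.73 ± 0.35 (adjusted p = 0.00153), and PRC1, which bundles spindle microtubules, by 1.76 ± 0.36 (adjusted p = 0.00181). The 3 kinesins and PRC1 overlapped between groups. In KIF23, KIF11 and PRC1 the overlapping CHT library was L245, and in KIF15 it was L170. The summed level of division genes in L245, 169.98 CPM, lay inside the Ctrl range of 98.1 to 186.9 CPM, while the other 5 CHT libraries were at 316 to 405 CPM.

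The calls for division depended on the libraries used. The 3 endothelial-low Ctrl libraries summed to 98.1 to 116.9 CPM and the 3 high ones to 156.7 to 186.9 CPM. Only 1 of the 36 genes, NCAPH, was called without the low set, 24 were without the high set, 26 with the endothelial level as a covariate, and 9 without CHT libraries L157 and L266. For DNA replication 4 of 22 were higher (median 0.45), including POLE, the leading-strand polymerase (1.35 ± 0.27, adjusted p = 0.0015), and RRM2, a ribonucleotide reductase subunit (1.97 ± 0.39, adjusted p = 0.00164). Without the endothelial-low set 0 were called, without the high set 4, and without L157 and L266 2.

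Collagens and proteoglycans make up the leaflet's matrix. Of 19 collagens 0 were called by edgeR and 1 by DESeq2, with 5 at an unadjusted p under 0.05 and a median log2 fold change of 0.24, beside 5.62% of all genes called. With the endothelial level as a covariate, 4 of the 19 were called higher. COL3A1, an abundant fibrillar collagen of the leaflet, was at 5210.5, 6041 and 7632 CPM in Ctrl and 6006, 7709.5 and 8261 CPM in CHT (0.24 ± 0.13, adjusted p = 0.345). COL1A1 ran from 565.9 to 3832 CPM in Ctrl and from 1074 to 6239.9 CPM in CHT (0.73 ± 0.62, adjusted p = 0.631). The 3 endothelial-low Ctrl libraries held the 3 highest COL1A1 values of their group. Of 34 proteoglycans and other matrix genes only CD44, the hyaluronan receptor, which leukocytes also carry, was called (1.04 ± 0.17, adjusted p = 0.000155). VCAN, the large proteoglycan versican, was at 7196, 8614 and 10034 CPM in Ctrl and 4843, 6453 and 7531 CPM in CHT, with a small overlap (-0.47 ± 0.18, adjusted p = 0.149).

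The enzymes that turn matrix over gave 5 higher and 1 lower of 23 (median 0.05). Beside MMP12 and MMP9, PLAU, the urokinase plasminogen activator, rose from 10.9, 13.0 and 18.0 to 29.1, 58.0 and 87.4 CPM (2.11 ± 0.25, adjusted p = 4.19e-06), and its receptor PLAUR by 1.89 ± 0.48 (adjusted p = 0.014), a call that was lost without CHT library L266, without either endothelial set of Ctrl libraries and without L157 and L266. ADAM12, a membrane-anchored protease, rose by 1.54 ± 0.38 (adjusted p = 0.0112), a call lost without the endothelial-low Ctrl libraries and without CHT libraries L157 and L266. Under each of these settings 3 enzymes were called higher and 0 lower. TIMP4, a protease inhibitor named after its values were seen, fell from 17.0, 28.2 and 42.2 to 5.53, 9.84 and 27.9 CPM (-1.21 ± 0.33, adjusted p = 0.0253). PLAU held under every alternative, but the call of TIMP4 was lost in 12 of 24.

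Of 21 ossification genes tested 1, SPP1, was called higher and 1, TNFRSF11B, lower, beside 4.98% and 0.640% of all genes, with a median log2 fold change of -0.26. TNFRSF11B, osteoprotegerin, the decoy receptor that restrains osteoclast formation, was at 173.5, 212 and 249.1 CPM in Ctrl and 93.6, 146 and 168.2 CPM in CHT (-0.60 ± 0.16, adjusted p = 0.0181). The groups did not overlap, but the call was lost in 12 of 24 alternatives, among them the fit without L157 and L266, DESeq2 size factors and DESeq2 on all 4 treatments, though not DESeq2 on Ctrl and CHT alone. RUNX2, the master regulator of osteoblasts, was at 0.293, 0.732 and 1.27 CPM in Ctrl and 0.709, 1.35 and 2.03 CPM in CHT (0.73 ± 0.43, adjusted p = 0.421). ALPL, tissue-nonspecific alkaline phosphatase, was not called either (-0.62 ± 0.36, adjusted p = 0.416). Of 27 TGF-beta and BMP genes 0 were called by edgeR and 1 by DESeq2, with 7 at an unadjusted p under 0.05.

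Contractile genes of smooth muscle and myofibroblasts rose in part. Of 12 tested 3 were called higher, beside 4.98% of all genes, with a median log2 fold change of 0.44. In the same 3 all CHT libraries lay above all Ctrl libraries, beside 3.00% of all genes. MYH11 (ENSOCUG00000013450), smooth muscle myosin heavy chain, was at 24.8, 39.4 and 58.6 CPM in Ctrl and 143, 333 and 825 CPM in CHT (3.32 ± 0.49, adjusted p = 4.13e-05). ACTG2, enteric smooth muscle actin, went from 1.01, 1.86 and 7.76 to 12.9, 26.6 and 36.6 CPM (3.01 ± 0.46, adjusted p = 6.98e-05), and ACTA2, the actin alpha-SMA that marks myofibroblasts, from 36.6, 83.0 and 112 to 151.8, 266.6 and 337 CPM (1.70 ± 0.34, adjusted p = 0.00147). The 3 calls held without the endothelial-low Ctrl libraries, without the high ones, without CHT libraries L157 and L266 and with the heart muscle level as a covariate. The abundant members TPM1, CALD1 and SYNPO2 were not called.

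**Figure D4:**
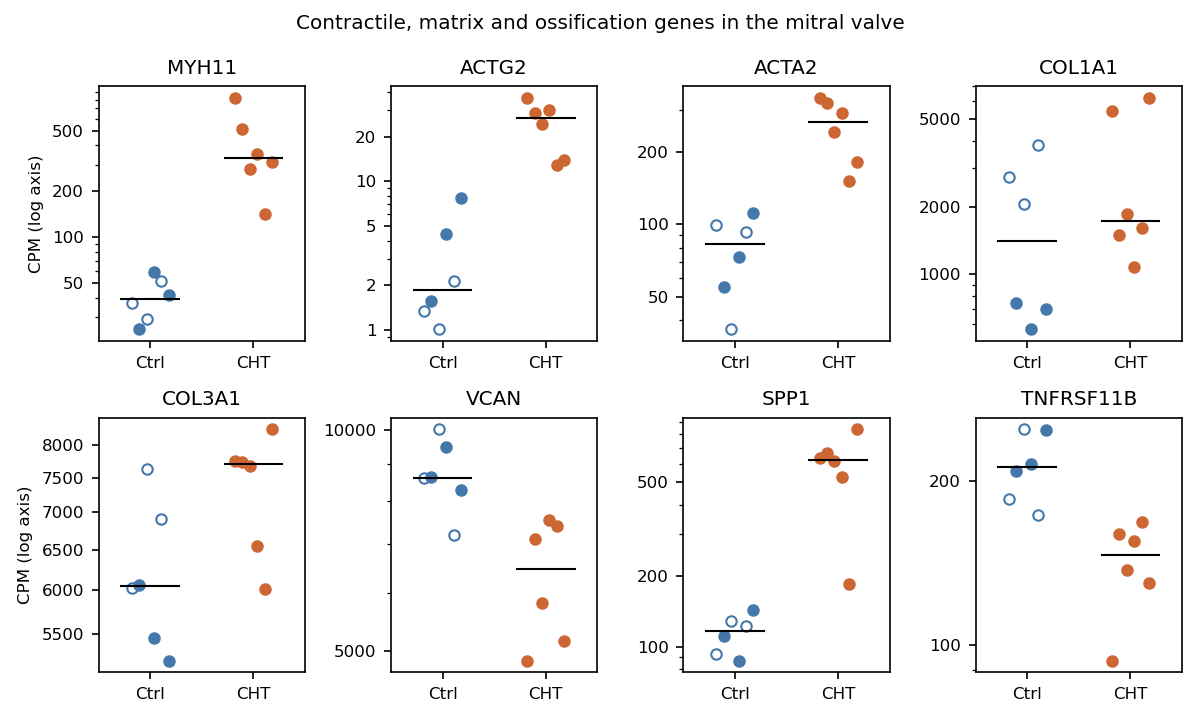
CPM on log axes of contractile, matrix and ossification genes in the 6 Ctrl (blue) and 6 CHT (orange) mitral valve libraries, with a line at each group's median and open circles for the 3 endothelial-low Ctrl libraries. MYH11, ACTG2, ACTA2 and SPP1 were higher and TNFRSF11B lower in every CHT library than in any Ctrl library, while COL1A1, COL3A1 and VCAN overlapped.

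Of 16 interstitial and fibroblast markers 1 was called, beside 5.62% of all genes. It was TBX20, a transcription factor of valve and heart development, which fell from 425, 511 and 593 to 218, 292 and 393 CPM (-0.81 ± 0.15, adjusted p = 0.000818). CD34, found on endothelial and stromal progenitor cells, fell by 0.64 ± 0.16 (adjusted p = 0.0121), and its call was lost without the endothelial-low Ctrl libraries, without CHT library L266 alone, without L157 and L266 and with the plate as a covariate. Of 28 Wnt genes 2 were lower, beside 0.640% of all genes (median -0.36): FZD4, a Wnt and norrin receptor (-0.68 ± 0.14, adjusted p = 0.0027), and RSPO2, a secreted enhancer of Wnt signaling (-0.81 ± 0.21, adjusted p = 0.0144). TBX20, CD34 and FZD4 did not overlap between groups, but FZD4 was not called without Ctrl library L278 or without CHT library L266, nor RSPO2 without the endothelial-low Ctrl libraries, and without L157 and L266 0 of the 28 were called. TSC22D3, the glucocorticoid-induced leucine zipper GILZ, was the only one of the 12 called lower genes with the smallest p that belongs to no sterol list, at 237.4, 321 and 365 CPM in Ctrl and 134, 162 and 173.1 CPM in CHT (-0.97 ± 0.12, adjusted p = 4.62e-06). Of the endothelial adhesion genes, ICAM1 was not called (0.38 ± 0.37, adjusted p = 0.691), and SELE was called at 1.61 CPM in the median CHT library (2.08 ± 0.64, adjusted p = 0.0489) but lost the call in 18 of 24 alternatives.

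Some of the strongest changes belonged to genes outside these groups. ANO4, a member of the anoctamin family, was at 0.502, 0.956 and 1.084 CPM in Ctrl and 20.0, 58.7 and 114 CPM in CHT (6.16 ± 0.45, adjusted p = 7.65e-10). NYAP2, an adaptor of PI3-kinase known from neurons, was at 0.160, 0.277 and 0.637 CPM in Ctrl and 18.6, 50.0 and 107 CPM in CHT (7.53 ± 0.55, adjusted p = 7.65e-10). In both genes every CHT library was above every Ctrl library. TRPM1, a cation channel of melanocytes and the retina, was at 0, 0.159 and 0.713 CPM in Ctrl and 11.7, 25.8 and 106 CPM in CHT (7.14 ± 0.72, adjusted p = 2.38e-07). MCOLN2, a lysosomal cation channel, rose by 4.17 ± 0.40 (adjusted p = 1.52e-07), and CADM1, an adhesion molecule, by 1.91 ± 0.20 (adjusted p = 6.85e-07). MLANA, a melanosome protein, was called as well, at 0.127, 0.809 and 2.08 CPM in Ctrl and 5.66, 15.0 and 26.9 CPM in CHT (3.96 ± 0.56, adjusted p = 2.42e-05). The defining melanocyte genes TYR, TYRP1, DCT and PMEL were under the filter, with at most 9 read pairs in any of the 12 libraries.

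Iron genes counted 3 called higher of 13 (median 0.58), and 1 without the endothelial-low Ctrl libraries or without CHT libraries L157 and L266. SLC11A2, the iron transporter DMT1, rose from 9.51, 14.0 and 17.0 to 20.7, 28.6 and 34.0 CPM (1.03 ± 0.19, adjusted p = 0.000809), a call lost without the endothelial-low libraries. HMOX1, heme oxygenase (1.37 ± 0.31, adjusted p = 0.00574), and FTL, ferritin light chain (1.31 ± 0.32, adjusted p = 0.0102), rose with overlap between groups, HMOX1 was not called without the endothelial-low libraries, FTL without CHT library L157, and neither without L157 and L266. Of 5 folate and nutrient transport genes called higher of 12 (median 0.68), GGH, SLC46A1 and SHMT2 handle folate. The 5 became 3 without the endothelial-low Ctrl libraries, without the high ones, on plate 1 alone and without L157 and L266. Of 19 genes of mitochondrial respiration 0 were called by edgeR or DESeq2, with 0 at an unadjusted p under 0.05. Of 17 genes of glycolysis and the hypoxia response 1 was called, HK3, the hexokinase of leukocytes, beside 5.62% of all genes, and 0 were without L157 and L266.

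The CHT response of the mitral valve was compared with that of the tricuspid valve, the other atrioventricular valve, as the difference of their log2 fold changes. It differed in 354 of 15890 genes (2.23%, edgeR adjusted p under 0.05), more positive in the mitral valve in 340 (2.14%) and more negative in 14 (0.0881%). With the rabbit as a block, 433 differed (2.72%). Without the mitral valve libraries of the 3 endothelial-low Ctrl rabbits, 148 did, and without mitral valve libraries L157 and L266, 114 did. Heart muscle markers summed to 943 to 51778.5 CPM in the Ctrl and 5258 to 40327 CPM in the CHT tricuspid libraries, and their part in these differences was not tested.

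Members of several lists were among the 340 genes. Of 27 genes of leukocyte adhesion and signaling 20 were more positive in the mitral valve, of 23 lysosomal genes 13, of 12 foam cell genes 8, of 20 innate receptors 8, of 36 division genes 8, of 19 macrophage markers 6 and of 12 smooth muscle genes 2. GPNMB differed by 4.71 ± 0.61 (SE, adjusted p = 1.75e-06), with a log2 fold change of 1.23 in the tricuspid valve. ANO4 differed by 6.39 ± 0.60 (adjusted p = 4.34e-10), with -0.21 in the tricuspid valve. MYH11 differed by 4.32 ± 0.59 (adjusted p = 5.78e-06), with -0.97 there. None of these 3 genes passed an adjusted p of 0.05 for CHT against Ctrl in the tricuspid valve. PLAU differed by 2.35 ± 0.31 (adjusted p = 2.08e-06) and SPP1 by 2.65 ± 0.52 (adjusted p = 0.000998).

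Of the sterol synthesis enzymes 0 of 14 differed in edgeR with or without the block, and the median log2 fold changes were -1.13 in the mitral and -0.99 in the tricuspid valve, with a median difference of -0.41 gene by gene. For SQLE the difference was -0.42 ± 0.32 (adjusted p = 0.55) and for INSIG1 -0.17 ± 0.37 (adjusted p = 0.854). Of 12 LXR and efflux genes 0 differed, and 1 did with the rabbit as a block. That gene was ABCA1, whose difference was 1.07 ± 0.31 (adjusted p = 0.0551) and 1.16 ± 0.18 with the block (adjusted p = 0.000278). In the tricuspid valve its log2 fold change was 2.73. A difference that missed the threshold does not show that both valves responded alike, and the SE gives the range it leaves.

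**Figure D5:**
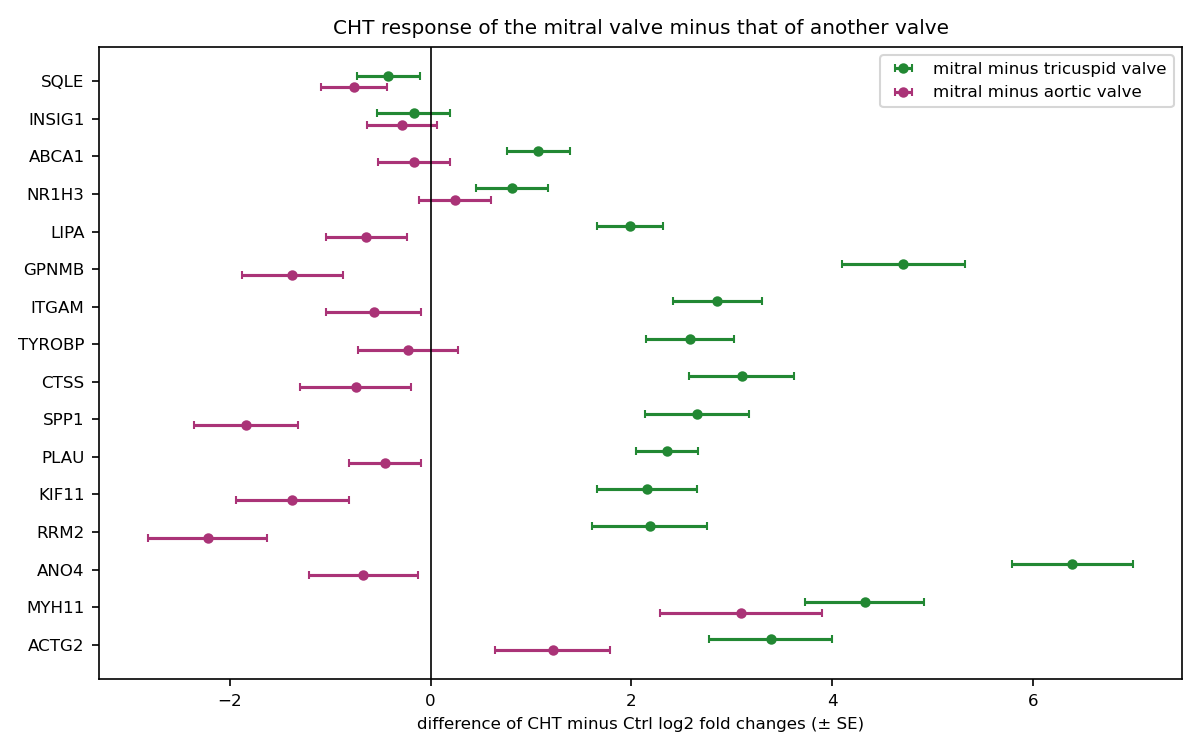
Difference between the CHT minus Ctrl log2 fold change of the mitral valve and that of the tricuspid (green) or aortic (purple) valve for 16 genes, with bars of 1 SE from the edgeR interaction. GPNMB differed from the tricuspid valve by 4.71 and MYH11 by 4.32, while SQLE and INSIG1 lay within 0.8 of 0 against either valve.

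Against the aortic valve, 0 of 16166 genes differed in edgeR, with or without L157 and L266, with 1816 at an unadjusted p under 0.05 and 75 by DESeq2. Every rabbit with a mitral valve library also had an aortic and a tricuspid valve library, and with the rabbit as a block 805 genes differed (4.98%), 440 more positive in the mitral valve (2.72%) and 365 more negative (2.26%). In that fit 15 of 36 division genes and 5 of 12 foam cell genes were more negative in the mitral valve. RRM2 differed by -2.59 ± 0.32 (adjusted p = 0.000145) and SPP1 by -1.81 ± 0.34 (adjusted p = 0.0155), while GPNMB differed by -1.55 ± 0.37 (adjusted p = 0.03). In the fit with the block the rise of these genes was thus smaller in the mitral valve, with GPNMB at a log2 fold change of 7.32 in the aortic valve. None of them differed in edgeR without the block, and the block fit was not repeated with libraries left out.

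MYH11 went the other way against the aortic valve, with a difference of 2.79 ± 0.65 with the block (adjusted p = 0.0283) and 3.09 ± 0.81 without it (adjusted p = 0.121). Of the 12 smooth muscle genes 3 were more positive in the mitral valve with the block. Of 21 heart muscle markers 9 were too, beside summed levels of 321 to 14831 CPM in the Ctrl and 71.1 to 471 CPM in the CHT aortic valve libraries. The part of heart muscle in the other differences was not tested. Of the 14 sterol synthesis enzymes 0 differed between these valves with the block. The median log2 fold changes were -1.12 and -1.081 and the median of the differences gene by gene was -0.45, and the missed threshold does not show alike responses here either.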

How the data were processed

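Total RNA of rabbit valves was sequenced as paired reads from SMARTer Stranded Total RNA-Seq (Pico) libraries. The authors deposited whole-number counts of read pairs per gene, made with nf-core/rnaseq on OryCun2.0 after bcl2fastq 2.20 (submitters' processing notes), without pooling or normalization. Pipeline defaults were used apart from trimming, per the study's methods, which do not name the strand setting, so antisense and overlapping genes are uncertain, as are near-identical gene copies.

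Libraries were grouped by their treatment labels, and the rabbit was read from the number in the column name. Genes were filtered with filterByExpr and scaled by TMM. Then edgeR 4.0.16 (R 4.3.3, robust quasi-likelihood F test) was fitted to the 26 mitral valve libraries of the 4 treatments without covariates. A prior count of 2 entered only the log2 CPM behind the principal components, the endothelial and muscle covariates and the correlations between valves, not the fold changes. All adjusted p-values are Benjamini-Hochberg values over all genes tested, errors after ± are SEs of the log2 fold change, and fold changes are on the log2 scale. A gene was called at an adjusted p under 0.05 and a fold change over 1.5. Differences between valves were interaction terms over all treatments of both tissues, called at an adjusted p under 0.05. DESeq2 1.42.0, plate, filters and left-out libraries were alternatives, and the endothelial split, the covariates of endothelial and muscle level and leaving out 2 CHT libraries were chosen after seeing the data.

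Depth was 13564979 to 42151854 read pairs, and 3 read pairs, taken as the floor, came to 0.0712 to 0.221 CPM in CHT libraries. Intervals from counts cover counting error only. No library was identical to another. Same-rabbit libraries deviated together: the median correlation of deviations was 0.46 between mitral and aortic valve (26 of 26 pairs over 0.1) and 0.299 between mitral and tricuspid valve (19 of 26), against -0.0154 and 0.00869 for different rabbits.

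The members and gene lists were chosen with earlier results of these data known, so lists are described by counts and medians and not tested. Genes named were the 12 called in each direction with the smallest p, the 5 called with the smallest p in each list, the 3 most abundant of each cell type list, 5 in each direction for each difference between valves, and a set of sterol, macrophage, matrix and ossification genes. Other genes are named as members of a list or as marked in the text. Some genes of these lists are not reported here.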

Additional observations from a re-analysis of the deposited data

Results flagged for a closer look

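Among 252 groups of 6 libraries tested for a library far from the rest by Dixon's test of the gap over the range, which chance passes in about 1 of 20 groups, 18 had one. CHT library L266 had the most read pairs, about 42150000.0, and stood above its group in MID1IP1 at 33.27 CPM, ATP6V0D2 at 54.46 CPM, PRDM1 at 24.56 CPM and ALPL at 5.913 CPM. CHT library L157 stood above in VLDLR at 155.4 CPM, TRPM1 at 106.0 CPM and the heart muscle myosin MYH7 at 3138 CPM. CHT library L229 stood above in the interferon-induced CXCL10 at 39.85 CPM and IFIT3 at 91.99 CPM, and in CCL19 at 4.256 CPM.

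In Ctrl, library L278 stood above its group in STARD4 at 12.79 CPM, NCAPH at 21.64 CPM and MMP12 at 0.5091 CPM, and L241 in TNF at 1.01 CPM. Ctrl library L199 stood above in CCR1 at 0.4807 CPM. Ctrl library L262 stood below in ANO4 at 0.5017 CPM and above in the summed smooth muscle markers at 3031 CPM.

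The CHT response differed between the mitral and tricuspid valves by the edgeR interaction test, and the 5 genes with the smallest p in each direction are given here. It was more positive in the mitral valve by 6.976 in NYAP2, 6.393 in ANO4, 4.71 in GPNMB, 2.43 in GAS2L3 and 2.351 in PLAU, on the log2 scale. The difference was -0.5748 in MXI1, -0.7933 in CACHD1, -0.725 in RARRES2, -0.4983 in EIF2AK4 and -0.6776 in SELENOM. With the rabbit as a block EIF2AK4 had an adjusted p of 0.0556.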

How the results depend on the processing

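The 861 called genes became 354 (323 higher) without the 3 endothelial-low Ctrl libraries, 404 (375 higher) without CHT libraries L157 and L266, and 467 (448 higher) at an adjusted p under 0.01 and a fold over 2. Leaving out 1 library at a time gave 637 to 1097 calls, 589 to 924 of them higher. Genes called lower, 0.640% of the 15322 genes tested, were 0.202%, 0.189% and 0.124% under the same settings. They were 0.313% to 1.13% with 1 library left out: 0.313% without CHT library L266, 0.418% without L157, 1.13% without L245 and 0.405% without Ctrl library L199. DESeq2 on Ctrl and CHT alone gave 1.05%, and an adjusted p under 0.05 alone 1.38%. The 927 calls against Lard ranged from 767 to 1147, and were 500 without L157 and L266.

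No paired analysis was possible for CHT against Ctrl because the groups came from different rabbits. With the rabbit as a replicate block, the difference from the aortic valve went from 0 to 805 genes (DESeq2 75) and that from the tricuspid valve from 2.23% to 2.72% of the genes tested. The latter was 3.57% with DESeq2 0.931% without the endothelial-low libraries and 0.717% without L157 and L266. The PECAM1 log2 fold change of -0.13 ± 0.74 (not called) changed sign, to 3.365, without the 3 endothelial-high Ctrl libraries.

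Of 93 called genes checked, not all of them given above, 57 lost the call under none of the 24 alternatives. A gene that was not tested under an alternative did not count as lost. The call was lost by 32 without the endothelial-low libraries, 24 without L157 and L266, 15 without the high ones and 12 on plate 1 alone. Among the 32 were C3AR1, CX3CR1, IFIT3, ADAM12, SLC11A2 and HMOX1. Of 19 uncalled genes 3 were called under an alternative. Of 2112 list counts, 1938 stayed within 1.5 times, but many of these were 0 in the main fit and stayed 0. The count of division genes called higher went from 26 to 1 without the endothelial-low libraries. The causes were not tested. Low counts limit MARCO, APOC1, CD28, MMP9, MMP12, ATP6V0D2, EPB42, CCR1, NYAP2, OASL and TRPM1, each at 12 read pairs or fewer in every Ctrl library.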

Other observations

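Gene lists not described above are given by their counts, beside 4.98% of all genes called higher. Of 15 genes of the phagocyte oxidase and the oxidative stress response 5 were called higher in CHT against Ctrl (median log2 fold change 0.21), and 3 were without the endothelial-low Ctrl libraries or without CHT libraries L157 and L266. Of 6 red blood cell and platelet markers 1, EPB42, was called higher, and 0 were without the endothelial-low or the endothelial-high Ctrl libraries. Of 7 adipocyte markers 0 were called by edgeR and 1, lower, by DESeq2, with 2 at an unadjusted p under 0.05, and their summed level ran from 32.8 to 323 CPM in Ctrl and from 46.7 to 363 CPM in CHT. Of 9 genes of p53 and the DNA damage response 0 were called by edgeR or DESeq2, with 4 at an unadjusted p under 0.05.

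The 7 mitral valve libraries of rabbits that ate cholesterol and were also irradiated were not compared. Their values, as lowest, median and highest, were 872, 1081 and 1287 CPM for ABCA1, 3.40, 5.68 and 6.57 CPM for SQLE, 599.2, 1959.6 and 2751 CPM for GPNMB, and 52.9, 242.4 and 795 CPM for MYH11. TRPM1 was at 37.1, 133 and 238.04 CPM and MLANA at 15.8, 29.8 and 43.0 CPM in these libraries. In the Lard libraries TRPM1 reached at most 0.943 CPM and MLANA 3.62 CPM.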
